A study of Mus musculus with 87 samples.

Results

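From the 2-cell stage to the morula, polyadenylated RNA of semi-cloned pWT mouse embryos changed in most listed oocyte, 2-cell, ribosomal protein and proteasome genes. Of the oocyte and 2-cell genes tested, 42 of 49 and 23 of 30 fell. Ribosomal protein and proteasome genes rose in 73 of 79 and 26 of 31 cases. Of 61 respiratory chain genes 35 rose, and 23, 22 or 19 did without morula library 1, 2 or 3. Of all genes tested, 12.4% rose and 19.1% fell. The comparison rests on 7 of the 87 samples of the series, 4 libraries of 2-cell embryos and 3 libraries of morulae, chosen by their stage and genotype labels. Genes that fell between the stages held 60.8 to 69.8% of all gene counts in the 2-cell libraries and 7 to 7.62% in the morulae. Genes that rose held 3.94 to 6.22% at the 2-cell stage and 44.6 to 45.1% in the morulae. These shares describe the genes that the test itself chose.

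The series studied mice made by semi-cloning, a method in which an androgenetic haploid stem cell, a cultured cell with a single genome of paternal origin, takes the place of the sperm. The labels give the genotype of the embryos compared here as pWT and nothing more, so strain, stem cell line, embryos per library and hour of collection are unknown from the sources used here. Embryos labelled pIR, at the same stages (4 libraries each), and pWT blastocysts (4 libraries) served as further measurements. What pIR stands for is not given either. Nothing in the labels says that the libraries of a group came from separate embryo collections, so the p-values measure the spread between these libraries, which may in part be technical.

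The fertilised mouse egg is at first transcriptionally quiet and lives on RNA stored by the oocyte. This maternal RNA is shortened at its poly(A) tail, decapped and degraded, while the embryonic genome is switched on in a minor wave in the zygote and a major wave at the 2-cell stage. By the morula the blastomeres compact, gain an apical pole, and begin to separate into outer cells that form the trophectoderm and inner cells that form the embryo proper. The assay selects or copies polyadenylated RNA, so a shorter poly(A) tail and less RNA cannot be told apart here, and neither can less RNA of a gene per embryo and more RNA of all other genes.

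The 2-cell libraries held 10889204 to 24005031 gene counts and 10908 to 13913 genes with a count, and the morula libraries held 7717160 to 16041235 counts and 12036 to 12952 genes. The 50 most counted genes took 26.8 to 31.9% of the 2-cell counts and 18 to 19% of the morula counts. Pearson correlations of log2(CPM + 1) were 0.84 to 0.90 among the 2-cell libraries, 0.95 to 0.96 among the morulae and 0.59 to 0.67 between the stages; CPM is a gene's count relative to all gene counts of its library, in the usual scaling. The 2-cell libraries thus differed more among themselves than the morulae did. The stages were deposited as separate tables, and stage and table cannot be told apart. The columns used for pWT carry another name, O48, and were assigned to pWT by elimination. Markers of other cells that a collection could carry along took small shares of counts in all 7 libraries, though some had counts. The 18 cumulus and granulosa markers summed to 0.000994 to 0.00358% of counts at the 2-cell stage and 0.00277 to 0.00351% in morulae. These sums are 9.94 to 35.8 and 27.7 to 35.1 CPM. Per library 2 to 6 and 3 to 5 members had a count. The 14 fibroblast markers summed to 1.12e-05 to 0.00562% (0.112 to 56.2 CPM) and 0.000415 to 0.00179% (4.15 to 17.9 CPM). Of these 1 to 5 and 3 to 4 had a count. The 12 blood markers summed to 0.00155 to 0.00464% and 0.000474 to 0.0018%. Of these 3 to 4 and 4 had a count.

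Promoters of 6 genes that the results turn on are shown first: Zscan4c, Zscan4d and Usp17lb, which fell, and Rps18, Psmd12 and Uqcr11, which rose. Each stretch is the 120 bases before the transcription start in RefSeq (GRCm38.p6), read 5′ to 3′ on the gene's strand. Capitals mark 4 motifs on either strand: the TATA box TATAAA; the NF-Y box CCAAT; the ETS factor core CCGGAAG; and the GC box GGGCGG.
Zscan4c, chr7:11005625-11005744, plus strand: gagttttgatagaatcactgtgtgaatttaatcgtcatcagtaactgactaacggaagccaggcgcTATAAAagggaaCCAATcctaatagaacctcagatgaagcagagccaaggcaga
Zscan4d, chr7:11166149-11166268, minus strand: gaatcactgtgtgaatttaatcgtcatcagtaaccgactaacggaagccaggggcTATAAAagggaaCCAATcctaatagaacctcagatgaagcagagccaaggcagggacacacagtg
Usp17lb, chr7:104842584-104842703, minus strand: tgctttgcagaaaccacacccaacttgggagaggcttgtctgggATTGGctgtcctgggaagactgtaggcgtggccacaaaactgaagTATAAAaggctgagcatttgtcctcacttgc
Rps18, chr17:33955666-33955785, minus strand: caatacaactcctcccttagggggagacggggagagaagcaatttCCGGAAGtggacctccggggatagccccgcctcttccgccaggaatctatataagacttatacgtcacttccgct
Psmd12, chr11:107479408-107479527, plus strand: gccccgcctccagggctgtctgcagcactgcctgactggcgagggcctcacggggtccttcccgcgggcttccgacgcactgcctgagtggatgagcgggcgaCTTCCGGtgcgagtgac
Uqcr11, chr10:80406822-80406941, minus strand: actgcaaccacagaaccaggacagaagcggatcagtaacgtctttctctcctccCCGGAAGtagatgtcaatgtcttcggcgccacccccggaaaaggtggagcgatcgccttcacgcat

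The 3 genes that fell carry TATAAA and CCAAT in these windows, and the 3 that rose carry CCGGAAG; these 6 were picked by hand as examples, so only the shares over all genes describe the classes. Zscan4c and Zscan4d share a stretch of 55 bases without a mismatch, and reads of such paralogues can be split or lost in counting. Over windows of 300 bases, from 250 before to 50 after the start, a promoter was found for 9731 of the 11968 protein-coding genes tested. CCGGAAG on either strand was present in 23.5% of the 1224 promoters of genes that rose, 12.5% of the 1836 of genes that fell and 19.4% of the 6671 of genes that did not pass the test, against 18.6% of all 9731. The share was 9.12% in all 27025 promoters of the table, which are not limited to tested or protein-coding genes and so are no matched background. Among the list members with a promoter it was present in 9 of 25 proteasome genes (36%) and in 14 of 49 respiratory chain genes (28.6%). TATAAA was present in 8.42%, 9.31% and 6.7% of the promoters of genes that rose, fell or did not pass, against 7.41% of all 9731. In the whole table, with the same limit, it was present in 14.2%. CCAAT was about as frequent in all classes, at 37.7%, 40.9% and 40.8%. For the oocyte, 2-cell and ribosomal protein lists fewer than 80% of the genes had a promoter in the table, and their shares are not given. CpG content also differed: the ratio of observed to expected CpG was above 0.6 in 71.9% of promoters of genes that rose, 60% of those that fell and 73.5% of those that did not pass. These shares are descriptions of letters, with no test.

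Of 12979 genes that passed the filter on low counts, 1603 rose (12.4%) and 2485 fell (19.1%) from the 2-cell stage to the morula at an adjusted p below 0.05 (edgeR's quasi-likelihood test). The changes were large. Genes that rose had a median fitted log2 fold change of 4.56, genes that fell one of -6.15, and 1416 and 2281 of them changed more than 4-fold. Of those that rose, 420 had 0 counts in every 2-cell library, and of those that fell, 771 had 0 counts in every morula. CPM of the groups did not overlap for 53.3% of all genes tested, 33.1% higher and 20.2% lower in morulae, so a lack of overlap alone was common. The fitted changes use TMM scaling. With library totals only, the median of all genes moved by 0.57, from -0.15 to 0.41, and the split of called genes became 50.8% up in place of 39.2%, so a change is best read against that shift. The number of calls, 4088, was 2322, 2441 or 2298 without morula library 1, 2 or 3, while leaving out a 2-cell library gave 3616 to 4292.

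**Figure D1:**
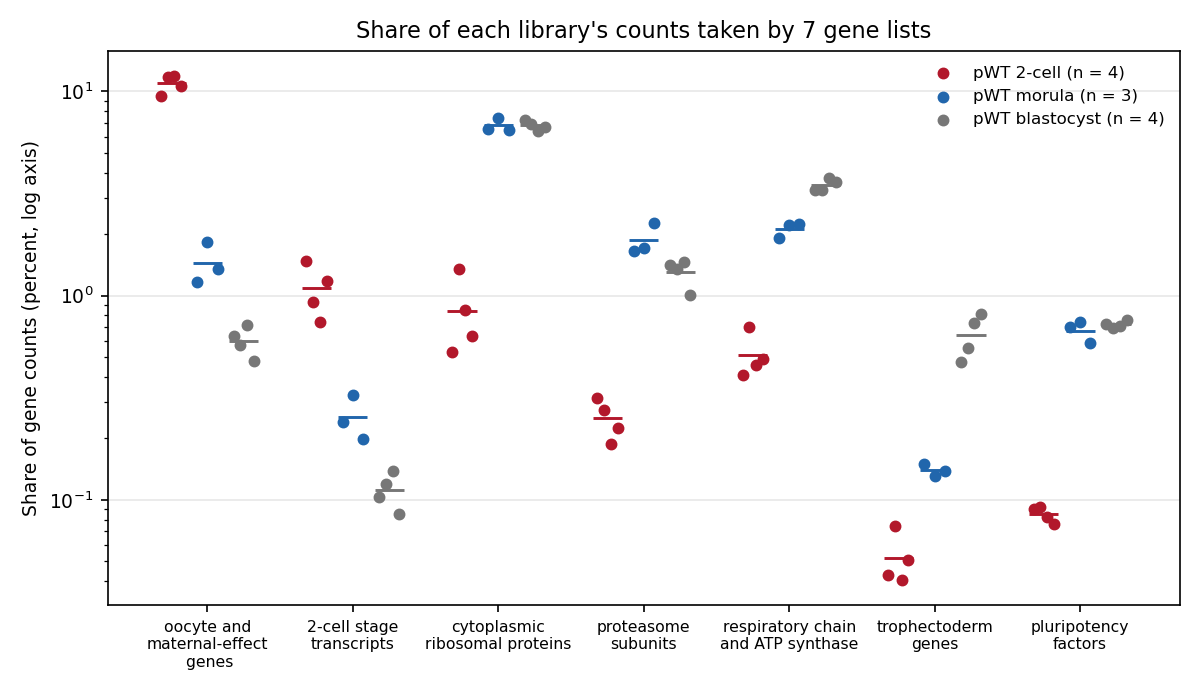
Share of gene counts, in percent on a log axis, taken by 7 gene lists in each pWT library of the 2-cell stage (n = 4), morula (n = 3) and blastocyst (n = 4); each point is a library and each line a group mean. The oocyte list drops from 9.52 to 11.9% to 1.17 to 1.83%, while the ribosomal protein list goes from 0.527 to 1.35% to 6.51 to 7.37%.

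Oocyte and maternal-effect genes, which the egg stores for fertilisation and the first divisions, fell almost as a block. Of 50 listed genes 49 were tested, and 42 fell, 1 rose and 6 did not pass, against 19.1% and 12.4% of all genes. The median fitted log2 fold change was -9.52, or -8.23 with the 12 members at 0 in one stage set to their bound, against -0.15 for all genes. The list took 9.52 to 11.9% of counts at the 2-cell stage and 1.17 to 1.83% in morulae. Without Dppa3, its most counted member in morulae, those shares were 8.65 to 10.7% and 0.166 to 0.206%.

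Btg4, the adaptor that brings the CCR4-NOT deadenylase to maternal mRNA, took many of the 2-cell counts, with 9787, 7885, 9836 and 13129 CPM in the 4 libraries. In morulae it was at 4.11, 1.55 and 0.0802 CPM (log2 fold change -12.96 ± 1.33 SE, adjusted p = 0.000411). Tcl1, an oocyte-enriched cofactor of AKT kinase, was even across the 2-cell libraries, at 11385, 11105, 11673 and 11050 CPM, and at 10.7, 0 and 0.722 CPM in morulae. The oocyte transcripts Omt2a and Omt2b had means of 19121 ± 8965 and 20240 ± 10262 CPM (SD, n = 4) and fell to 7.91 and 8.69 CPM in morulae. Obox5 and Obox1, homeobox genes of a clustered family, fell from 10421 and 3165 CPM to 1.29 and 0.0831 CPM. Members of such families (Obox, Nlrp9, Omt2, Oog) are near copies of each other, so the split of counts between them is uncertain.

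The growth factors of the egg fell as well. Bmp15, a ligand of the TGF-beta family made by the oocyte, was at 2615, 510, 508 and 1575 CPM at the 2-cell stage and at 0 in all 3 morulae, at least 15700-fold lower when the morulae are set to a floor of 3 counts over the group. Its partner Gdf9 went from 539, 114, 85.7 and 256 CPM to 4.3, 2.2 and 5.29 CPM (log2 fold change -6.49 ± 0.86 SE, adjusted p = 0.00113). Both genes were highest in 2-cell libraries 1 and 4, and every 2-cell library was above every morula. Nlrp5, the scaffold of the subcortical maternal complex, was at 869, 159, 130 and 351 CPM and then at 7.11, 0 and 0 CPM (adjusted p = 0.0172). Zp3, the zona pellucida protein that binds sperm, was at 14.4, 72.4, 232 and 20.8 CPM against 13.5, 2.98 and 5.86 CPM. The groups barely separated, and the call (adjusted p = 0.0302) was lost without 2-cell library 3 or any morula. Mos, the kinase that holds the egg in metaphase, was already low, at 7.44, 0.838, 3.08 and 7.57 CPM, and at 0 in every morula. Its call (adjusted p = 0.0212) was lost when any morula library was left out.

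The WEE1-like kinase Wee2 was at 2101, 587, 629 and 1779 CPM at the 2-cell stage and had a single count in all morulae together, a ratio of 41500 (95% interval 7450 to 1640000 for counting error). Nlrp9a was at 1076, 634, 492 and 922 CPM and at 0 in every morula, at least 9430-fold lower. Not all 2-cell libraries were alike in these genes. Nlrp14, Bcl2l10, Rfpl4 and Kpna7 were also highest in libraries 1 and 4, whereas Omt2a, Omt2b and Oosp1 were lowest in library 1.

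Khdc3 and Dppa3 did not follow the rest of the list. Khdc3, another member of the subcortical maternal complex, rose: it was at 9.92, 10.1, 16.8 and 7.88 CPM at the 2-cell stage and at 1944, 1542 and 1910 CPM in morulae (log2 fold change 6.75 ± 0.44 SE, adjusted p = 0.000123). It stayed at 1085 ± 84.4 CPM (SD, n = 4) in blastocysts. Dppa3 (Stella), which protects the maternal genome from demethylation, was among the 5 most counted genes at both stages, at 8726, 24003, 12026 and 12664 CPM and then 9635, 16626 and 11506 CPM. The groups overlapped and the change did not pass (log2 fold change -0.78 ± 0.44 SE, adjusted p = 0.213). Tle6, Padi6, Zar1, Astl and Gpr3 had fitted changes from -10.37 to -2.79 that did not pass, each with a lowest 2-cell value of 3.80 CPM or less.

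**Figure D2:**
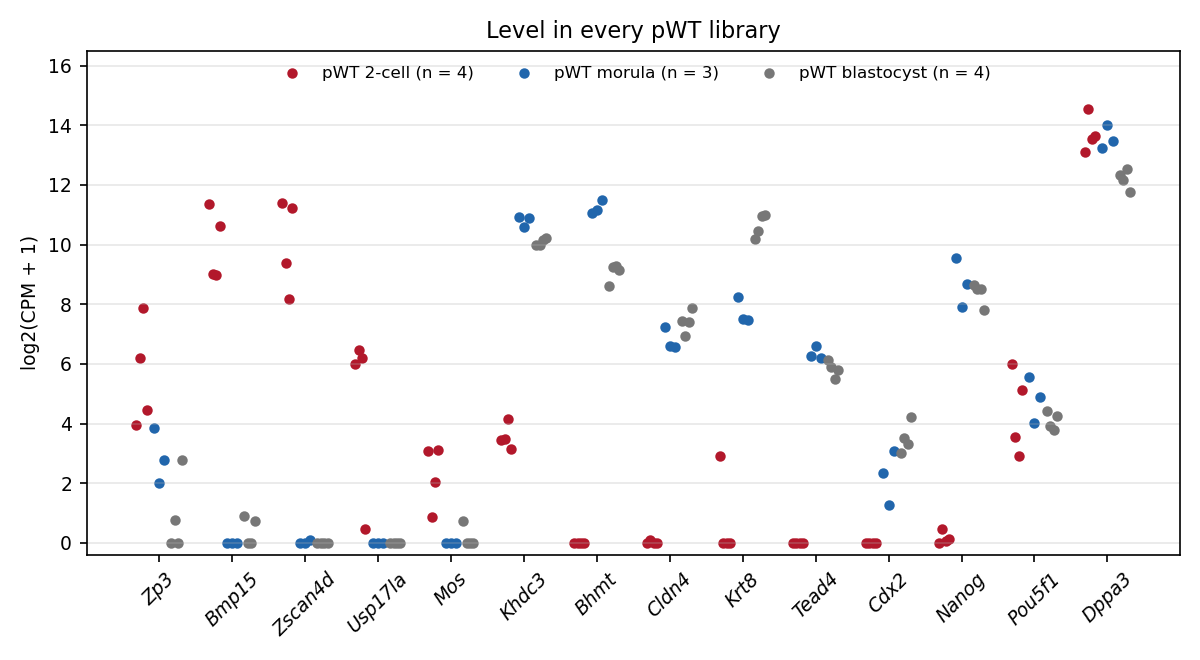
Level of 14 genes as log2(CPM + 1) in every pWT library of the 2-cell stage (red, n = 4), morula (blue, n = 3) and blastocyst (grey, n = 4), each point a library. Bmp15, Zscan4d and Usp17la are near 0 after the 2-cell stage, Khdc3, Bhmt and Nanog are high in every morula and at 16.8 CPM or less in every 2-cell library, and Dppa3 overlaps between 2-cell embryos and morulae.

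The machinery that removes maternal RNA changed in the same direction for fewer members. Of 20 tested decay factors 8 fell (40%, against 19.1% of all genes), 1 rose and 11 did not pass, with a median log2 fold change of -1.32. Cnot7, a catalytic deadenylase subunit, was at 2609, 1979, 3416 and 3165 CPM and then 150, 149 and 262 CPM (log2 fold change -4.47 ± 0.47 SE, adjusted p = 0.000424). Marf1, an RNA-degrading protein of meiosis, went from 232, 330, 398 and 320 CPM to 19.3, 9.2 and 12.7 CPM. Cnot6l, Pan3, Cnot2, Dcp2 and Dcp1a fell too, by 1.55 to 4.45 on the log2 scale. The fall was not shared by the whole complex: the scaffold Cnot1 had a log2 fold change of 0.23 ± 0.41 SE and Cnot8 one of 0.13 ± 0.45 SE, neither of which passed. Ythdf2, the m6A reader that directs methylated maternal mRNA to decay, rose from 94.6, 115, 51.9 and 76.5 CPM to 322, 295 and 223 CPM (adjusted p = 0.04). This call was lost without 2-cell library 3 or 4 or any morula. It was also lost without the filter on low counts, with the replicate block and in the test for at least 2-fold.

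Transcripts of the major wave of genome activation, which appear at the 2-cell stage and are known for being brief, took 0.744 to 1.48% of counts in 2-cell libraries and 0.199 to 0.325% in morulae, where 14 to 21 of the 30 members still had a count. Of the 30, 23 fell (76.7%), 1 rose and 6 did not pass, against 19.1% of all genes that fell, with a median log2 fold change of -6.97 (-6.54 with 5 members at their bound). Zscan4d, a zinc finger gene that marks 2-cell embryos and 2-cell-like stem cells, was at 2664, 660, 290 and 2396 CPM and had 1 count in all morulae together. Zscan4c went from 759, 118, 332 and 635 CPM to 0, 0 and 2.49 CPM (log2 fold change -9.56 ± 1.80 SE, adjusted p = 0.00551). Usp17la, a deubiquitinase gene of another tandem family, was at 62.4, 87.7 and 72.1 CPM in 3 libraries, at 0.368 CPM in library 4, and at 0 in every morula. Zfp352, a retrotransposon-derived zinc finger gene, was at 732, 444, 294 and 413 CPM and then 0, 0 and 0.401 CPM (log2 fold change -12.14 ± 1.20 SE, adjusted p = 0.000367). Zscan4 and Usp17l genes lie in clusters on chromosome 7 and are near copies, and the tables hold no transposon entries, so the retroviral transcripts of this stage were not analysed here.

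Pramel6, Obox6 and Sp110 were among the 7 that did not fall. Pramel6 rose from 82.8, 111, 93.4 and 39.5 CPM to 1020, 784 and 1130 CPM (adjusted p = 0.00127). Obox6 was at 567, 610, 155 and 261 CPM and then 374, 1117 and 233 CPM, with overlapping groups and a log2 fold change of -0.06 ± 0.62 SE (adjusted p = 0.957). In blastocysts Obox6 was at 3.58 ± 2.18 CPM (SD, n = 4). Sp110 had a log2 fold change of 1.18 ± 0.46 SE that did not pass.

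Factors with a known part in starting embryonic transcription moved in both directions: 2 of 21 rose (9.52%), 6 fell (28.6%) and 13 did not pass, against 12.4% and 19.1% of all genes. Obox3, a maternal and zygotic homeobox gene, was at 327, 520, 186 and 408 CPM and at 0 in every morula, at least 4350-fold lower. Klf17 fell from 2645, 278, 256 and 894 CPM to 37.5, 18.3 and 14.8 CPM (log2 fold change -5.97 ± 1.03 SE, adjusted p = 0.00364), with 2-cell library 1 far above the others. Nfya, the subunit of NF-Y that contacts CCAAT boxes, fell from 165, 58.9, 25.8 and 80 CPM to 12.5, 8.03 and 17.6 CPM, while Nfyb and Nfyc did not pass, at log2 fold changes of 0.02 ± 0.77 and 0.53 ± 0.79 SE. Dppa2, a chromatin factor upstream of the 2-cell genes, rose (adjusted p = 0.0108). It went from 290, 99.2, 138 and 165 CPM to 786, 926 and 840 CPM. This call was lost with the replicate block and in the test for at least 2-fold. Dppa4, the partner of Dppa2, missed the threshold (adjusted p = 0.0536). Nr5a2, Tfap2c and Yap1 did not pass, at log2 fold changes of 0.13, 2.22 and -0.31. The median of this list was -0.19 and changed sign under other scalings (0.01 with RLE size factors, 0.40 with library totals), so no direction is given for it.

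The apparatus of protein synthesis rose nearly throughout. Of 79 cytoplasmic ribosomal protein genes 73 rose and none fell, against 12.4% and 19.1% of all genes, with a median log2 fold change of 2.82 and a fitted increase for all 79 members. The rise was called for 68 to 73 of them when any library was left out. Rps18 was at 36.5, 47, 24.7 and 17.8 CPM at the 2-cell stage and at 1132, 1023 and 1108 CPM in morulae (log2 fold change 4.55 ± 0.41 SE, adjusted p = 0.000241). Rpsa, the laminin-binding component of the small subunit, went from 18.5, 30, 25 and 26.3 CPM to 704, 490 and 490 CPM, and Rpl36 from 6.15, 2.29, 1.79 and 3.73 CPM to 238, 331 and 250 CPM. Rpl13a rose by 3.77 ± 0.35 SE on the log2 scale. The 6 members that did not pass were Rpl21, Rpl37, Rpl39, Rpl41, Rplp0 and Rps3a1; Rplp0 was already at 727, 709, 1776 and 326 CPM in 2-cell embryos. Ribosomal protein genes have many pseudogenes, and the sources used here do not say how reads of near copies were counted.

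Ribosome assembly in the nucleolus gave fewer calls. Of 38 genes 8 rose (21.1%, against 12.4% of all genes) and none fell, with a median of 1.25, and 2, 2 or 3 rose without morula 1, 2 or 3. Npm1, nucleophosmin, was at 788, 1115, 1208 and 831 CPM and then 4603, 3514 and 3413 CPM (log2 fold change 1.38 ± 0.32 SE, adjusted p = 0.0138), a call lost without morula 1. Gnl3, nucleostemin, went from 39.9, 55.6, 28 and 48 CPM to 280, 302 and 273 CPM, without overlap (adjusted p = 0.00327). Mybbp1a and Nhp2 rose by 4.52 and 1.74 on the log2 scale, calls lost without 2-cell library 4 or morula 2 and, for each, 1 further morula, and Ncl, nucleolin, missed the threshold at 1.32 ± 0.47 SE (adjusted p = 0.0605).

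**Figure D3:**
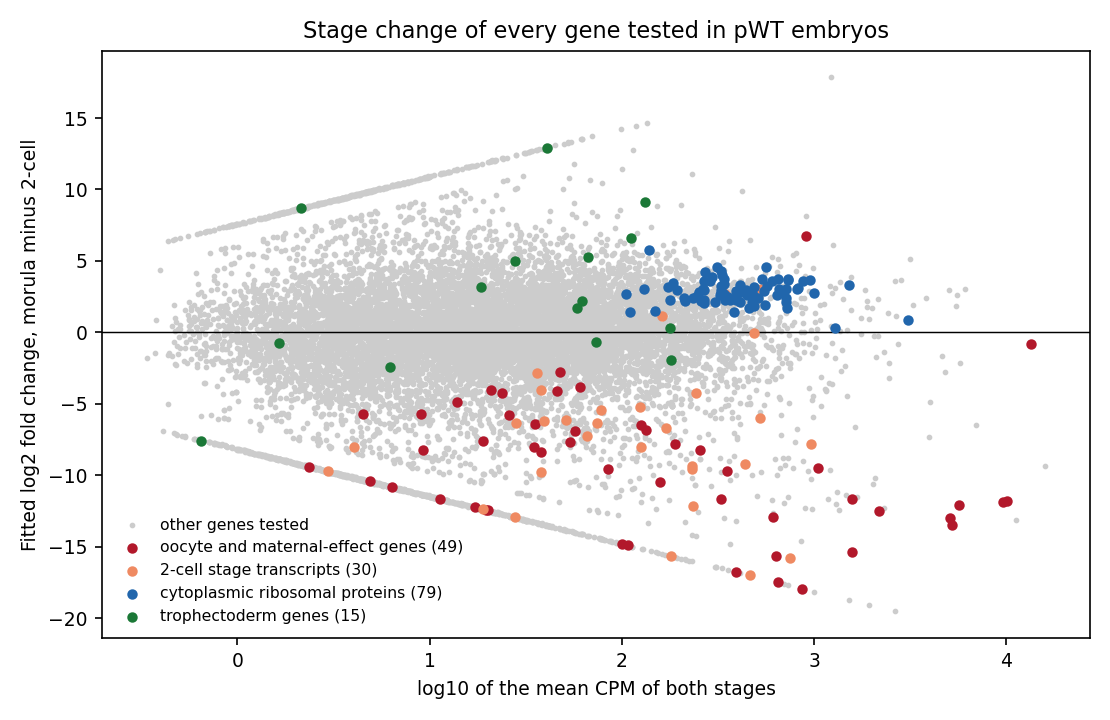
Fitted log2 fold change, morula minus 2-cell, against the log10 of the mean CPM of both stages for every gene tested (grey), with 4 lists in colour; the straight edges of the cloud are genes with 0 counts in one stage, whose fitted changes are no bounds. Ribosomal protein genes (blue, 79) sit above 0, while 48 of the 49 oocyte genes (dark red) sit below it.

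Proteasome subunits followed the ribosomal proteins. Of 31 genes 26 rose and none fell (median 2.42), against 12.4% and 19.1% of all genes, with 19 to 25 called when a library was left out. Psma7, a ring subunit of the core particle, was at 108, 110, 98.1 and 133 CPM and then 1130, 1181 and 1544 CPM (log2 fold change 2.95 ± 0.32 SE, adjusted p = 0.000473). Psmd14, the lid deubiquitinase, went from 20.2, 35.3, 5.08 and 29.5 CPM to 456, 406 and 698 CPM, and Psmd12 from 83.8, 68.5, 110 and 64.3 CPM to 490, 553 and 668 CPM. Psmd7, its partner in the lid, rose by 3.28 ± 0.35 SE. In blastocysts these 4 genes were lower than in morulae, with means of 782, 329, 264 and 329 CPM; that later step was not tested here.

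Nuclear genes of the respiratory chain and ATP synthase rose for 35 of 61 members and none fell, against 12.4% and 19.1% of all genes. The median was 2.06. Leaving out a 2-cell library gave 27 to 36 rises (and 2 falls without library 1), and 23, 22 and 19 rose without morula 1, 2 and 3. Uqcrb, a subunit of complex III, was at 3.67, 7.93, 6.92 and 3.63 CPM and then 723, 661 and 752 CPM (log2 fold change 6.42 ± 0.47 SE, adjusted p = 0.000123). Cox4i1, of cytochrome oxidase, rose from 37.4, 25.6, 23.1 and 25 CPM to 504, 552 and 498 CPM, and Atp5j, of the ATP synthase stalk, from 21.9, 67.3, 18.5 and 31.4 CPM to 1111, 1418 and 1339 CPM. Uqcr11 rose by 3.08 ± 0.37 SE. Other subunits were steadier: Cox8a had a log2 fold change of -0.86 ± 0.34 SE and Cox5b one of -0.34 ± 0.36 SE, neither of which passed. None of the 13 mitochondrially encoded genes is among the symbols of the tables.

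Early embryos live on pyruvate and lactate, and take up much glucose only around compaction. Of 23 genes of glucose, lactate and pyruvate use 3 rose (13%) and 3 fell (13%), shares near or below the 12.4% and 19.1% of all genes, so the list as a whole did not stand out and single genes are given. Ldhb, the heart form of lactate dehydrogenase that oocytes store, was at 2677, 1153, 1156 and 2689 CPM and then 1.25, 5.18 and 0.963 CPM (log2 fold change -10.24 ± 0.95 SE, adjusted p = 0.000293). Ldha, the muscle form, also fell, from 115, 18.7, 12.2 and 73.4 CPM to 6.86, 10.1 and 0.722 CPM (adjusted p = 0.0377), a call lost when 2-cell library 1 or 4 or any morula was left out. Slc2a3, the high-affinity glucose transporter, rose from 3.95, 9.27, 0 and 15.8 CPM to 251, 438 and 237 CPM (adjusted p = 0.0284), and Hk1, a hexokinase, from at most 0.503 CPM to 76.2, 57.4 and 19.7 CPM. The call for Slc2a3 was lost without 2-cell library 1 or 2 or any morula. Pdha1, the regulated subunit of pyruvate dehydrogenase, rose by 2.77 ± 0.58 SE. Slc2a1, the ubiquitous glucose transporter, was at 34.2, 1.84, 0.0417 and 5.15 CPM and then 49.7, 20.6 and 60.7 CPM, overlapping groups that did not pass (adjusted p = 0.45).

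Some lineage genes were among the rises, though most listed ones did not pass. Of 19 pluripotency factors 5 rose (26.3%, against 12.4% of all genes) and none fell, with a median of 1.65. Nanog, which marks cells of the inner cell mass, was at 0, 0.391, 0.0417 and 0.105 CPM at the 2-cell stage and at 741, 239 and 412 CPM in morulae (log2 fold change 11.06 ± 1.03 SE, adjusted p = 0.000295). Dppa5a rose from 184, 384, 278 and 314 CPM to 3204, 4160 and 2860 CPM, and Sall4 by 1.65 ± 0.43 SE, a call lost without 2-cell library 4 or morula library 1 or 2. Zfp42 (Rex1) rose too (adjusted p = 0.0391). Pou5f1 (Oct4) was at 63.3, 10.8, 6.46 and 34.1 CPM and then 45.8, 15.3 and 28.6 CPM, with overlapping groups and a log2 fold change of -0.47 ± 0.88 SE. Sox2 stayed low, at 0.551, 2.68, 0 and 9.35 CPM and then 9.04, 0.907 and 6.42 CPM, and reached 51.8 ± 10.8 CPM (SD, n = 4) in blastocysts. Klf4 and Esrrb were higher in every morula than in any 2-cell library, yet did not pass (adjusted p = 0.171 and 0.233). Pou5f1 and several glycolytic genes have processed pseudogenes, which can take up or lend reads, and their part here was not tested.

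Of 15 trophectoderm genes tested 4 rose (26.7%, against 12.4% of all genes) and none fell (median 2.22). Without any one morula 2 rose, and 1 fell without 2-cell library 2 or morula 3. Tead4, the DNA-binding partner of YAP that starts the trophectoderm programme, was at 0 in all 4 2-cell libraries and at 75.1, 96.3 and 72.3 CPM in morulae, at least 1940-fold higher against the floor of 3 counts (adjusted p = 0.00101). Its target Cdx2 was at 0 and then at 4.05, 1.43 and 7.38 CPM, at least 103-fold higher (adjusted p = 0.0233), a call lost without any one morula. Krt8, a keratin of the outer cells, was at 6.61, 0, 0 and 0 CPM and then 301, 182 and 178 CPM (adjusted p = 0.0407). This call was lost without 2-cell library 2 or 4 or any morula, and its partner Krt18, at 170, 111 and 112 CPM in morulae, missed the threshold (adjusted p = 0.0873). Lrp2, the endocytic receptor megalin, rose from 0, 0, 0 and 1.16 CPM to 227, 272 and 288 CPM (adjusted p = 0.00468). Gata3 was at 9, 13.1, 45.5 and 11.8 CPM and then 136, 72 and 83.5 CPM, without overlap, and did not pass (adjusted p = 0.105). Later genes of this lineage were not detected: Elf5 and Krt19 were at 0 in all 7 libraries. For counting error alone that allows at most 0.0418 CPM at the 2-cell stage and 0.0828 CPM in morulae. Of 8 primitive endoderm genes 1 rose (12.5%, the share of all genes being 12.4%), namely Gata6, from 0, 4.63, 6.29 and 0 CPM to 257, 196 and 149 CPM (adjusted p = 0.0347), lost without 2-cell library 2 or any morula, while Sox7 and Foxa2 were at 0 in all 7.

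Of 33 adhesion, junction and polarity genes, whose products act in compaction, 5 rose (15.2%) and 5 fell (15.2%), close to the 12.4% and 19.1% of all genes. The following values are of single genes. Cldn4, a tight junction claudin, was at 0, 0.0558, 0 and 0 CPM and then 150, 95.5 and 93.1 CPM, a ratio of 8530 (95% interval 1530 to 337000 for counting error, adjusted p = 0.000295). Cldn7 rose from 3.12, 4.47, 0 and 3.31 CPM to 155, 186 and 182 CPM. The desmosomal cadherin Dsg2 and the polarity gene Scrib were at 0 in the 2-cell libraries and rose to 2.33 to 20 and 4.15 to 10.4 CPM. On the other side, Rdx, the microvillar linker radixin, fell from 187, 193, 300 and 276 CPM to 34, 71.8 and 45.2 CPM (log2 fold change -2.85 ± 0.44 SE, adjusted p = 0.00202), and Pard3, of the apical PAR complex, from 242, 119, 151 and 248 CPM to 52.7, 38 and 22.7 CPM. Prkci, Mark2 and Myl12a fell by 1.31 to 2.04. Without morula 1, 2 or 3 the list gave 2, 3 or 2 rises and 3, 2 or 3 falls. Cldn4, Cldn7, Rdx and Pard3 kept their calls each time. The calls of Dsg2 and Scrib were thus lost without morula 1 or 3, and at most 1 of them was kept without morula 2. Those of Prkci, Mark2 and Myl12a were lost without morula 2, and at most 1 of these 3 was kept without morula 1 or 3. Cdh1 (E-cadherin) and Ctnnb1 were higher in all morulae, at 94.9, 67.1 and 62.6 and at 133, 138 and 115 CPM, but did not pass (adjusted p = 0.261 and 0.0656). Among genes of fluid transport, the aquaporin Aqp11 fell (adjusted p = 0.0258), and Aqp3 and Atp1b1 did not pass.

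The Hippo pathway couples cell position to Tead4 activity. Of 18 members 5 rose (27.8%) and 1 fell (5.56%), against 12.4% and 19.1% of all genes, and 2 or 3 rose without a morula library. Lats2, the kinase that keeps YAP out of the nucleus, was at 0 at the 2-cell stage and at 28.9, 14.3 and 20 CPM in morulae, at least 504-fold higher (adjusted p = 0.00889). Ccn2 and Ccn1, known YAP targets, were also at 0 and then at 29.4, 7.26 and 32.3 CPM and at 4.74, 5.05 and 14.9 CPM; their calls (adjusted p = 0.00982 and 0.0186) were lost without morula 3 for Ccn2 and without any one morula for Ccn1. Mob1a fell by 3.33 ± 0.87 SE. Yap1 itself was at 49.6, 36.5, 60.1 and 28.2 CPM and then 69.6, 51.1 and 37.5 CPM, with overlap, and Amotl2 did not pass (adjusted p = 0.276).

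**Figure D4:**
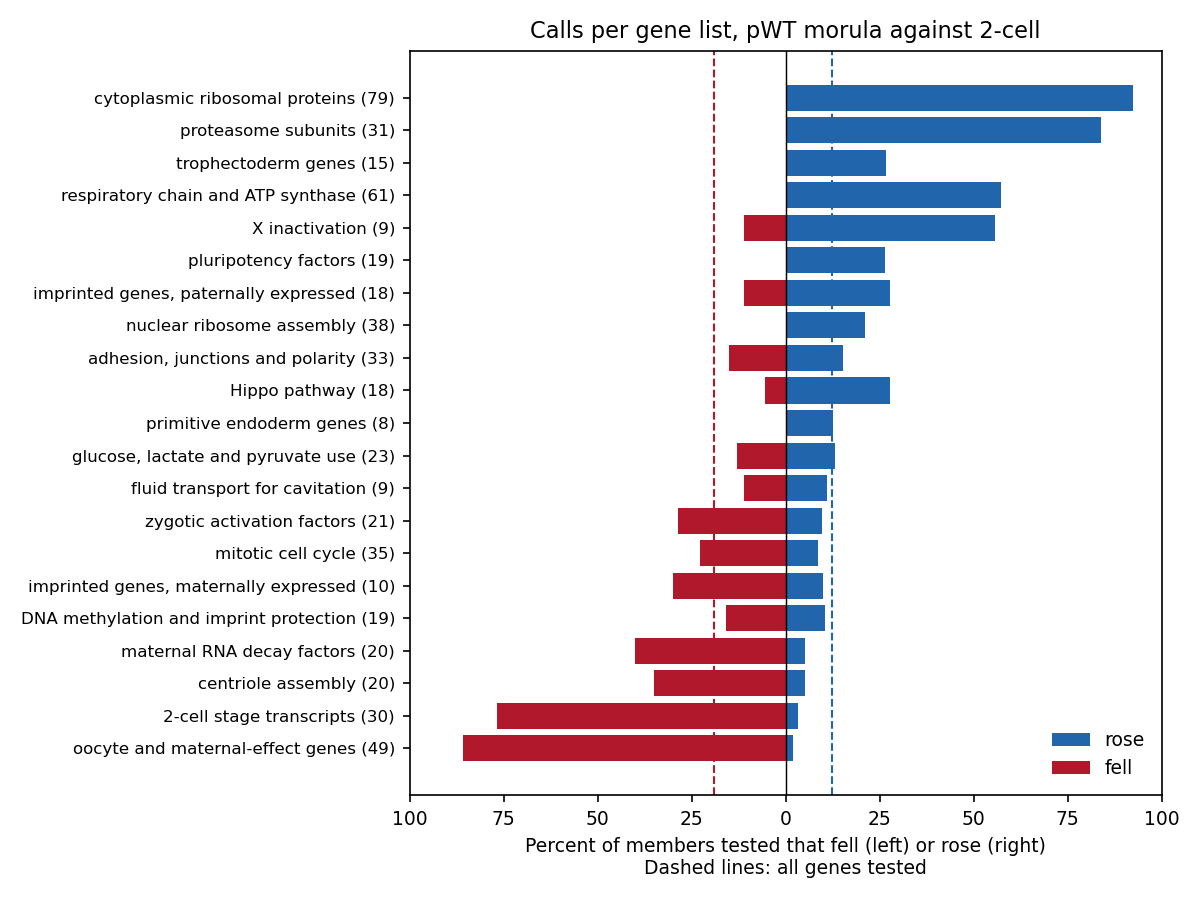
Share of the tested members of 21 gene lists that rose (blue, to the right) or fell (red, to the left) in pWT morulae against 2-cell embryos, in percent, ordered by median fitted change; numbers in brackets are members tested and dashed lines the shares of all genes, 12.4% and 19.1%. Ribosomal and proteasome genes stand far to the right and oocyte and 2-cell genes far to the left of those lines.

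The series is titled for stem cells that lack DNA methylation, so genes of methylation and imprinting were listed too. Of 19 methylation and imprint protection genes 2 rose (10.5%) and 3 fell (15.8%), near the 12.4% and 19.1% of all genes. Tet3, the oocyte dioxygenase that oxidises the paternal genome, went from 91.6, 65.9, 85.3 and 66.8 CPM to 1.62, 7.26 and 4.97 CPM (log2 fold change -4.65 ± 0.70 SE, adjusted p = 0.00182). Tet2 rose from 4.22, 6.87, 4.25 and 13.9 CPM to 204, 178 and 159 CPM (log2 fold change 4.03 ± 0.59 SE, adjusted p = 0.00171), and Tet1, at 72.6, 86.9 and 77 CPM in morulae, was above every 2-cell library without passing (adjusted p = 0.0716). The imprint protector Zfp57, a zinc finger protein that binds methylated imprint control regions, fell from 672, 284, 376 and 349 CPM to 2.49, 5.31 and 7.7 CPM (adjusted p = 0.000295), while its cofactor Trim28 rose from 21, 14.2, 25.7 and 20.9 CPM to 459, 501 and 383 CPM (adjusted p = 0.000295). Dnmt1, Dnmt3a, Dnmt3b, Dnmt3l and Uhrf1 did not pass, with log2 fold changes from -1.63 to 2.32; in Dnmt3a and Uhrf1, 2-cell library 1 stood apart at 124 and 135 CPM against at most 23.7 and 24.1 CPM in the others.

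Among imprinted genes 5 of 18 paternally expressed members rose (27.8%) and 2 fell (11.1%), against 12.4% and 19.1% of all genes. Without any one morula only 2 of 20 paternally expressed members tested rose. Of 10 maternally expressed members 1 rose (10%) and 3 fell (30%). Impact rose from 8.45, 9.77, 16.7 and 9.56 CPM to 110, 131 and 112 CPM (adjusted p = 0.00459), and Mest fell from 106, 14.3, 35.2 and 45.6 CPM to 2.74, 0 and 0.401 CPM (adjusted p = 0.0182), lost without morula 3. Snrpn and Snurf rose, but had nearly the same value in every library because they share a transcript, and count as 1 measurement. Sgce rose from 0 to 13, 0.907 and 3.45 CPM, lost without any one morula. Igf2r, the receptor that clears IGF2, rose from 11, 21.3, 6.62 and 5.04 CPM to 283, 240 and 222 CPM (adjusted p = 0.00154), and Phlda2, a placental growth brake, fell from 27, 114, 92.6 and 83 CPM to 3.68, 7.9 and 6.26 CPM. Ascl2 and Cdkn1c fell as well, the latter with a call lost without morula 1 or 2. These counts are not split by allele, so they say nothing of which parental copy is read.

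Xist, the RNA that coats the inactive X, rose from 0, 5.42, 9.16 and 9.19 CPM to 381, 227 and 286 CPM (log2 fold change 5.02 ± 1.22 SE, adjusted p = 0.0161). Its antisense partner Tsix had 145, 116 and 126 CPM in morulae, but whether the counting used strand is not given, and reads of the overlapping genes cannot be told apart. Rlim, the X-linked ligase that promotes Xist, fell from 622, 671, 364 and 582 CPM to 93, 96.3 and 82.2 CPM (adjusted p = 0.00048), and Hnrnpu rose by 1.81 ± 0.37 SE.

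Of 35 mitotic genes 8 fell (22.9%) and 3 rose (8.57%), near the 19.1% and 12.4% of all genes. Mad2l1 and Chek1, of the spindle and DNA damage checkpoints, fell from 1565, 2324, 2403 and 2188 and from 855, 684, 845 and 803 CPM to 224, 290 and 312 and to 156, 67.6 and 107 CPM (adjusted p = 0.000456 and 0.000678). Ccnb1, cyclin B1, fell from 4849, 2488, 1251 and 3059 CPM to 799, 1703 and 1297 CPM, with overlap between 2-cell library 3 and 2 morulae; the call (adjusted p = 0.0264) was lost with library totals in place of TMM and without 2-cell library 1 or 4 or any morula. Ccnd3, a G1 cyclin, rose from 12.8, 0.782, 5 and 4.15 CPM to 190, 123 and 71.8 CPM (adjusted p = 0.0113). The list's median was -0.27 and turned to 0.25 with library totals. Mouse zygotes have no centrioles until they are made anew around the blastocyst. Of 20 centriole genes 7 fell (35%) and 1 rose (5%), against 19.1% and 12.4% of all genes. Plk4, the kinase that starts centriole duplication, went from 705, 389, 796 and 847 CPM to 32.7, 32 and 27 CPM (log2 fold change -5.07 ± 0.45 SE, adjusted p = 0.000213), and Cenpj, Cetn2 and Poc1a fell by 2.75 to 3.12.

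The genes with the largest changes were mostly outside these lists. By the rule of at least 50 CPM in the higher stage, no overlap and a name other than a clone number, 10 rises and 10 falls are given. Bhmt, which makes methionine from betaine, was at 0 in all pWT 2-cell libraries. In morulae it was at 2126, 2306 and 2877 CPM (adjusted p = 0.000123), at least 58300-fold higher for counting error alone. In the shallower pIR 2-cell libraries Bhmt had a mean of 3.25 CPM, and its log2 fold change in pIR was 9.40 ± 0.81 SE. In pWT blastocysts Bhmt was at 546 ± 106 CPM (SD, n = 4). Syngr1, a synaptic vesicle protein, was at 0 and then 262, 274 and 275 CPM. Cyp2s1, Yif1a, Galk1 (galactokinase), Rab24, Nid1 (nidogen of basement membranes), Epas1 (HIF-2 alpha), Dnph1 and Eprn were also at 0 at the pWT 2-cell stage. Their morula means were 105 to 237 CPM, at least 2520- to 5690-fold higher for counting error alone. In pIR 2-cell libraries Syngr1, Cyp2s1 and Yif1a had means of 0.134, 1.95 and 0.482 CPM, while Galk1 was at 0.

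Among the falls, Tcl1b1, of the Tcl1 cluster on chromosome 12, was at 3522, 4336, 4076 and 3555 CPM and at 0 in every morula, at least 46800-fold lower. Bmp5, a ligand of the bone morphogenetic protein family, was at 1479, 1913, 2383 and 2232 CPM and at 0, at least 24200-fold lower. AA545190, Nlrp9c, Meis2 (a TALE homeobox factor), Bmp15, Usp17lb, Pld1 (phospholipase D1), Ifit1bl2 and Obox7 had 2-cell means of 790 to 3039 CPM and 0 in every morula. Each of the 20 genes was called in the same direction in pIR embryos too. Spin1, a histone reader of the oocyte and the most counted gene at the 2-cell stage (counts grow with transcript length), fell from 31676 ± 7101 to 73.8 CPM (log2 fold change -9.34 ± 0.56 SE, adjusted p = 0.000123). In morulae, after Dppa3, the most counted genes were the chaperone Hsp90aa1 at 11284 ± 1207 CPM (SD, n = 3), the ferritin chain Ftl1 at 10003 ± 3142 and the nuclear RNA Malat1 at 9297 ± 2943, all of which rose, by 3.01, 2.65 and 2.98.

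Some genes were read at one stage only. With 0 counts in every 2-cell library and a mean of at least 5 CPM in morulae there were 302 genes, of which 257 stayed at 5 CPM or more in blastocysts. In the other direction 872 genes had at least 5 CPM at the 2-cell stage and 0 in every morula, and 524 of these were at 0 in all 4 blastocyst libraries as well, with 24 back at 5 CPM or more. The pIR 2-cell libraries, which are shallower, had 0 counts for 141 of the 302 genes, and the pIR morulae for 559 of the 872. The share of genes that rose was 8.89% on chromosome 5 and 16.3% on chromosome 7, the lowest and highest of all chromosomes, and 25.9% of X-linked genes and 25.8% of those on chromosome 13 fell, against 13.1% on chromosome 11. Transcripts of genes that fell were longer, with a median of 3260 bases, against 2250.5 for those that rose and 3129.5 for those that did not pass (GENCODE M21, longest coding transcript). A cytoplasmic polyadenylation element, TTTTAT or TTTTAAT, was found in the last 100 bases in 22.6% of genes that fell, 13.9% of those that rose and 19.6% of those that did not pass, and in 14 of 48 oocyte list genes (29.2%). Base composition moves with this: the median GC of those 100 bases was 33, 39 and 36% in the same order, and its part in the shares was not tested.

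Embryos labelled pIR gave a second measurement of the same step in libraries that share no sample with the pWT ones, though they come from the same pair of tables. Of 12045 genes tested 3001 rose (24.9%) and 3150 fell (26.2%), and the groups did not overlap for 57.2%. Of the 3731 genes called in pWT and tested in pIR, 3695 (99.0%) had the same sign, against 10120 of all 11630 genes tested in both (87.0%). Genes that rose in both numbered 1228, 84% of the pWT and 41.9% of the pIR rises, and 2043 fell in both, 90% and 66.4%. Latexin (Lxn) was the 1 gene with opposite calls, and rose in pWT and fell in pIR. It was at 0 in the pWT 2-cell libraries and 3.89 ± 2.06 CPM (SD, n = 3) in the morulae, against 14.7 ± 8.79 and 1.30 ± 1.22 CPM (SD, n = 4) in pIR, and the difference did not pass the test of its own (adjusted p = 0.0844).

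The same lists are given for pIR beside the shares of 24.9% and 26.2% of all genes. Of 48 oocyte genes 46 fell and Khdc3 rose, with a median of -9.08. Of 30 2-cell genes 26 fell (median -8.96), of 79 ribosomal protein genes 76 rose (2.81), all 31 proteasome genes rose (3.19) and 49 of 61 respiratory genes rose (2.84). Several genes that missed the threshold in pWT passed in pIR, among them Cdh1, Ctnnb1, Krt18, Aqp3, Tfap2c and Tet1. A call in one kind of embryo alone does not show a difference. When the difference of the stage change was tested over all 15 libraries, 1 of 14976 genes (0.00668%) passed, Cdo1, cysteine dioxygenase. It went from 287 ± 154 to 0.104 ± 0.180 CPM in pWT and from 119 ± 33.8 to 4.89 ± 0.679 CPM in pIR (difference 6.71 ± 0.90 SE on the log2 scale, adjusted p = 0.0209). The number differed between tools, with 266 genes by DESeq2 and 1326 at an unadjusted p below 0.05 in edgeR.

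**Figure D5:**
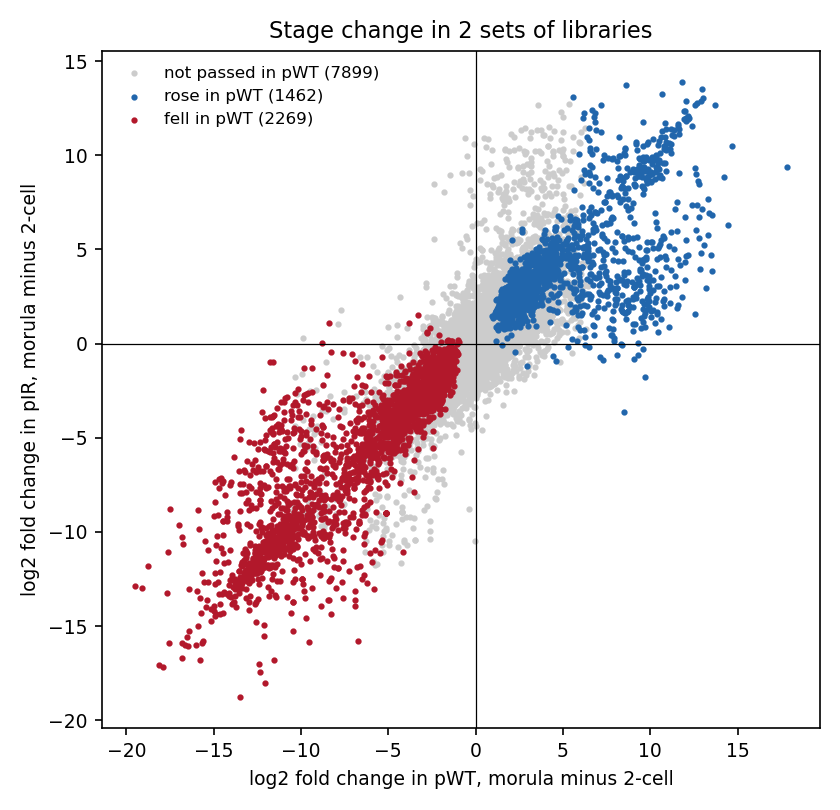
Fitted log2 fold change, morula minus 2-cell, in pIR embryos against that in pWT embryos for the 11630 genes tested in both, coloured by the pWT call (1462 rose, 2269 fell). Of the 3731 called genes tested in both, 3695 lie where both changes have the same sign, as do 10120 of all 11630 genes.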

How the data were processed

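Polyadenylated RNA was sequenced as 150 bp paired ends. The labels' protocols describe a poly(A) selection kit and a low-input full-length cDNA kit, with no record of which libraries had which. The submitters' processing notes list Trim Galore 0.6.6, HISAT2 2.1.0, featureCounts 1.6.4 and the build mm10, without settings for strand or multiply mapped reads. The deposited values are raw counts, from the authors, per gene for 25277 symbols, in one table for 2-cell embryos and one for morulae and blastocysts, joined here by symbol.

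Genes were filtered with filterByExpr (minimum count 10), scaled by TMM and tested with edgeR 4.0.16 (R 4.3.3; Benjamini-Hochberg, 0.05) in the 7 pWT libraries, the 8 pIR libraries, and all 15 for the difference. SE is |log2 fold change| over the root of F. With 3 against 4 libraries a single-gene exact test has little power, so only this fit is given. CPM use library totals. Genes at 0 were bounded at 3 counts over the group; intervals (95%) and floors cover counting error only. DESeq2 1.42.0 was an alternative, and the code was checked on simulated data. Within groups libraries differed by more than counting noise.

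Members and the 25 lists (657 of 673 entries found) were chosen with earlier results of these data known. Named genes were the 10 largest rises and falls (at least 50 CPM, no overlap), key genes of each list, and the 4 members with the smallest p in lists with at least 3 calls; genes most read, not passed or named as exceptions were added after their values were seen. Promoters came from RefSeq, GRCm38.p6. Exact positions of other genes were not used.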

Additional observations from a re-analysis of the deposited data

Results flagged for a closer look

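In 14 of the 125 named genes 1 of the 4 pWT 2-cell libraries stood far from the other 3, and in 0 of 24 list sums. In 4 of them (Krt8, Krt18, Cldn4 and Lrp2) the other 3 libraries were at 0, so any count stands apart by construction, and that of Cldn4 is a single count. The other 10 were flagged by a rule for 4 values, by which chance flags about 1 in 20 groups of normally spread values. With 125 genes tested some flags arise by chance alone, and the 10 were not set against that number. The rule was applied to raw CPM, and in all 14 genes the library apart was the highest. Whether skewed values alone give such flags was not tested, so the flags do not show that a library is a true outlier. Library 1 stood apart in Slc2a1 (34.2 CPM, others 0.0417 to 5.15), Krt8 (6.61 CPM, others 0), Dnmt3a (124 CPM, others 17.4 to 23.7), Uhrf1 (135 CPM, others 6.42 to 24.1) and Sall4 (78.4 CPM, others 33.4 to 40.3). Library 2 stood apart in Cldn4 (0.0558 CPM, others 0) and Nhp2 (579 CPM, others 199 to 220). Library 3 did so in Pld1 (1262 CPM, others 598 to 699), Gata3 (45.5 CPM, others 9 to 13.1), Dcp2 (249 CPM, others 165 to 178) and Impact (16.7 CPM, others 8.45 to 9.77). Library 4 did so in Krt18 (8.51 CPM, others 0), Lrp2 (1.16 CPM, others 0) and Ccne2 (912 CPM, others 235 to 324). The stage change of Cdo1 differed between pIR and pWT embryos by 6.71 on the log2 scale in the test of the difference. In pWT morulae Cdo1 had 5 counts, all in library 1 (0.312, 0 and 0 CPM), so the size of the difference rests on a value near the floor. Leaving out a library gave as few as 0 calls in this test, so the call of Cdo1 was not always kept.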

How the results depend on the processing

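Of 4088 genes called, other settings gave 3303 (at least 2-fold) to 6092 (pWT blastocysts in the fit), apart from the replicate block, and leaving out a library gave 2298 to 4292. With the replicate number as a block 1975 were called. The labels do not say whether equal numbers pair the libraries. Correlations of same-numbered deviations were 0.086, 0.060 and -0.009, and libraries 1 and 2, not 3, correlated best with their own number. With so few libraries these values cannot decide on pairing. In pIR embryos the count, 6151, stayed within 1.5 times under every alternative run. The count for the difference, 1, became 266 by DESeq2, 3 with RLE scaling or without the filter, and 0 to 16 when a library was left out, the 16 without pWT 2-cell library 1. Of 100 named genes called, 74 were called under all 15 alternatives and 25 were lost under at least 1, while Usp17la was called under the 12 that tested it and missed the filter under 3; the cause was not tested. The calls of Xist, Impact, Lats2, Cldn7, Hnrnpu and Cenpj were lost with the replicate block alone. Signs changed in 7 genes that did not pass. Obox6 was at 0.19 by DESeq2 and by RLE, 0.53 with library totals, 0.047 with blastocysts and 0.13 with pIR in the fit, and -0.90 to 0.31 when a library was left out. Pou5f1 was at 0.15 with the block, 0.059 with library totals, and -0.86 to 0.27 when a library was left out. Yap1 was at 0.27 with library totals. Leaving out a library gave -0.23 to 0.47 for Nr5a2, -0.28 to 1.79 for Sox2, -0.0094 to 0.50 for Dab2 and -1.23 to 0.17 for Dnmt3a. Depth limits undetected genes to 0.0418 CPM at the 2-cell stage and 0.0828 CPM in morulae.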
